A study of Mus musculus with 6 samples.

Results

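The genes described here are 10 members of the MHC class I presentation pathway, H2-K1, H2-D1, B2m, Tap1, Tap2, Tapbp, Psmb8, Psmb9, Psmb10 and Nlrc5, chosen by name from the 54446 genes of a count table. All 10 names matched a row, and every member had far more than 10 counts in every library. The study asked how regorafenib, a multikinase inhibitor used against liver cancer, affects the polarization of macrophages. Bone marrow-derived macrophages (BMDMs) were grown for 7 days from the marrow of male BALB/c mice, 6 to 8 weeks old, in medium with 20% L929-conditioned medium. They were left unpolarized (M0), polarized to M1 with LPS at 50 ng/mL together with IFN-γ at 20 ng/mL or polarized to M2 with IL4 (20 ng/mL), and polarization lasted 24 hours. Regorafenib (1 µM) was added 1 hour before polarization in M1 and M2. The paper does not give the exposure time of the unpolarized M0 cells. Each state was sequenced once without regorafenib (control, DMSO) and once with regorafenib. There was thus 1 library for each of the 6 conditions, and no difference between a pair of libraries has a replicate check.

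MHC class I molecules show peptides from inside the cell to CD8+ T cells. Proteasomes cut proteins into peptides, the TAP transporter carries the peptides into the endoplasmic reticulum, and tapasin with other chaperones loads them onto a heavy chain paired with β2-microglobulin. Interferon-γ is the classical inducer of the pathway: it acts through JAK1 and JAK2 on IRF1 and on NLRC5, the transactivator of class I genes, and it exchanges catalytic subunits of the constitutive proteasome for those of the immunoproteasome. In macrophages the same molecules also carry peptides from engulfed material (cross-presentation).

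The members lie at few places in the genome (GRCm38, Gencode M21). The MHC region of chromosome 17 holds 7 of them, and Psmb9, Tap1, Psmb8 and Tap2 follow each other there between bases 34181987 and 34216321. H2-K1 lies at chr17:33996017-34000347 on the minus strand and H2-D1 at chr17:35262730-35267499 on the plus strand. B2m lies at chr2:122147686-122153083, and Psmb10 (chr8:105935735-105938444) and Nlrc5 (chr8:94434356-94527272) lie on chromosome 8. Tap1 and Psmb9 are transcribed away from each other, and in RefSeq (GRCm38.p6) their starts at bases 34187556 and 34187330 leave 225 bases between them. BALB/c mice carry the H-2d haplotype, whereas the reference genome comes from C57BL/6J mice of the H-2b haplotype, so values for H2-K1, H2-D1 and the other class I heavy chains are counts of reads that matched the reference alleles. BALB/c mice also express H2-L, and reads of their alleles may have been lost or have gone to another class I gene; how many cannot be seen from the counts.

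The sequences just upstream of H2-K1, H2-D1 and B2m, the heavy chains and their shared partner, are shown for description. Their part in the regorafenib values below was not tested. They are reference sequences from RefSeq (GRCm38.p6), of which 8 of the 10 members have an entry (Tap2 and Nlrc5 do not), and they run 5′ to 3′ along the gene. Capitals mark, in the heavy chains, matches to a facing pair as in NF-κB sites (GGG, any 4 bases, CCC) and, in B2m, a match to the core of an interferon-stimulated response element, ISRE (GAAA, any 2 bases, GAAA). The H2-K1 window is chr17:34000348-34000597 (minus strand), the H2-D1 stretch is chr17:35262907-35262933 (plus strand, inside the first exon of a longer Gencode transcript) and the B2m window is chr2:122147437-122147685 (plus strand).
H2-K1: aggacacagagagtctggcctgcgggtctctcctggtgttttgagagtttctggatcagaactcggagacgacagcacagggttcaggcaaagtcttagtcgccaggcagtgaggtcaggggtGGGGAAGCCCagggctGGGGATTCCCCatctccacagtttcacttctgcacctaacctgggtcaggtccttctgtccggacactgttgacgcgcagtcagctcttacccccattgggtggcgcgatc
H2-D1: GGGGAAGCCCagggctGGGGATTCCCC
B2m: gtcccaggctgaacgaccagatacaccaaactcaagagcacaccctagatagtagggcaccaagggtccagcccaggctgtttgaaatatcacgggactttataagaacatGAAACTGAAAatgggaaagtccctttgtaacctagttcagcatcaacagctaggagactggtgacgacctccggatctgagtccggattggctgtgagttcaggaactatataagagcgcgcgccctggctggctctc

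The 27 bases with the capitals in H2-K1 stood letter for letter in H2-D1. Counted from the start of each gene, they ran from position -127 to -101 in H2-K1 (from -141 to -115 of its second RefSeq start) and from -187 to -161 in H2-D1. The 250 bases upstream of both genes aligned over 190 bases, of which 166 (87.4%) were identical. Each motif was searched on both strands in the 250 bases before the start. The NF-κB type pair was found in 2 of the 8 members with an entry, H2-K1 and H2-D1, and in 10.3% of 32851 promoters, and its 3 matches in each gene overlap in part. The ISRE core was found only in B2m among the 8, and in 2.98% of all promoters. TTCNNNGAA, the form of an interferon-γ activated site (GAS), was found only in Psmb8 among the 8, at position -97, and in 7.02% of all promoters. CCAAT was found in 6 of the 8 (33.8% of all promoters) and TGACG, a short form of the CREB site, in 5 of the 8 (17.8%). A match describes the letters and is not evidence of a bound factor. Only exact matches to these patterns were counted. A gene without a match may still hold a site with other letters or spacing, which was not searched for.

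Library totals lay between 25359309 and 34898342 counts, and reads of mitochondrial genes made up 0.961% to 1.53% of a library. The 6 macrophage markers were present in all libraries, from Csf1r and Adgre1 to Cd68, with summed levels of 3918 to 9267 CPM (counts per 1000000 counts of the scaled library). The 5 T and NK cell markers had at most 1 count and the 4 B cell markers at most 4. The 6 dendritic cell markers summed to between 0.485 and 2.79 CPM in M0 and M2 and to 32.0 and 38.8 CPM in M1, of which most came from Ccr7 (780 and 827 counts); Xcr1 had 36 and 102 counts in M1 and at most 1 elsewhere, while Flt3 and Clec9a had at most 3 counts in any library. The part of such cells in the M1 values was not tested. The 7 neutrophil markers summed to 84.8 CPM in M0 control and 158 with regorafenib, to 157 and 109.8 in M1, and to 88.8 and 132 in M2. Mpo gave most of this, with 2479 and 5124 counts in M0 and 3175 and 3646 in M2. S100a8 went the other way, with 123 and 91 counts in M0 and 68 and 39 in M2, and it had 1804 and 489 in M1. Ly6g was at 0 throughout. Mainly through Mpo, the sum was higher with regorafenib in M0 and M2, as were H2-K1 and H2-D1 below. The part of these markers in the heavy chain values was not tested. The 5 fibroblast markers summed to 3.19 CPM in M0 control and 10.2 with regorafenib, to 8.86 and 6.68 in M1, and to 3.56 and 5.76 in M2. Their part was not tested either. In RNA from a whole culture, fewer cells that express a gene and less RNA per cell cannot be told apart.

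Levels are given as CPM scaled with TMM (trimmed mean of M values) factors. B2m had 1096 CPM in M0 control, 1337 in M0 with regorafenib, 5439 in M1 control, 5032 in M1 with regorafenib, 1072 in M2 control and 1403 in M2 with regorafenib. H2-K1 had, in the same order, 545.6, 1228, 2247, 2277, 511.3 and 940.1 CPM. H2-D1 had 995.4, 2147, 3391, 3268, 1104 and 1752 CPM. Both M1 libraries were above the other 4 for all 3 genes, and for the 2 heavy chains the M0 and M2 libraries with regorafenib stood between the M1 libraries and the other controls.

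The transporter subunits were lower. Tap1 had 57.8 CPM in M0 control, 33.2 in M0 with regorafenib, 555.3 in M1 control, 577.4 in M1 with regorafenib, 28.5 in M2 control and 32.1 in M2 with regorafenib. Tap2, the partner of Tap1 in the transporter, had 64.2, 58.5, 355.8, 423.2, 51.2 and 58.1 CPM in the same order. Tapbp, which encodes tapasin, the bridge between TAP and the empty class I molecule, had 338.0, 340.2, 1557, 1629, 273.7 and 450.3 CPM. For these genes the M1 libraries again stood apart, most of all for Tap1, whose lower M1 library was 9.61 times its highest other library.

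Psmb8, the immunoproteasome subunit that takes the place of Psmb5, had 126.5 CPM in M0 control, 68.5 in M0 with regorafenib, 511.4 in M1 control, 526.9 in M1 with regorafenib, 86.3 in M2 control and 79.3 in M2 with regorafenib. Psmb9, which takes the place of Psmb6, had 33.7, 25.7, 186.1, 194.4, 20.5 and 32.3 CPM in the same order. Psmb10, which takes the place of Psmb7, had 52.9, 52.5, 255.6, 286.0, 68.4 and 90.8 CPM. Nlrc5, the transactivator, had 55.4, 42.9, 343.3, 304.8, 33.0 and 34.96 CPM. Every member was highest in the M1 libraries, and the gap between the lower M1 library and the highest other library ran from 1.52-fold (H2-D1) to 9.61-fold (Tap1).

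**Figure D1:**
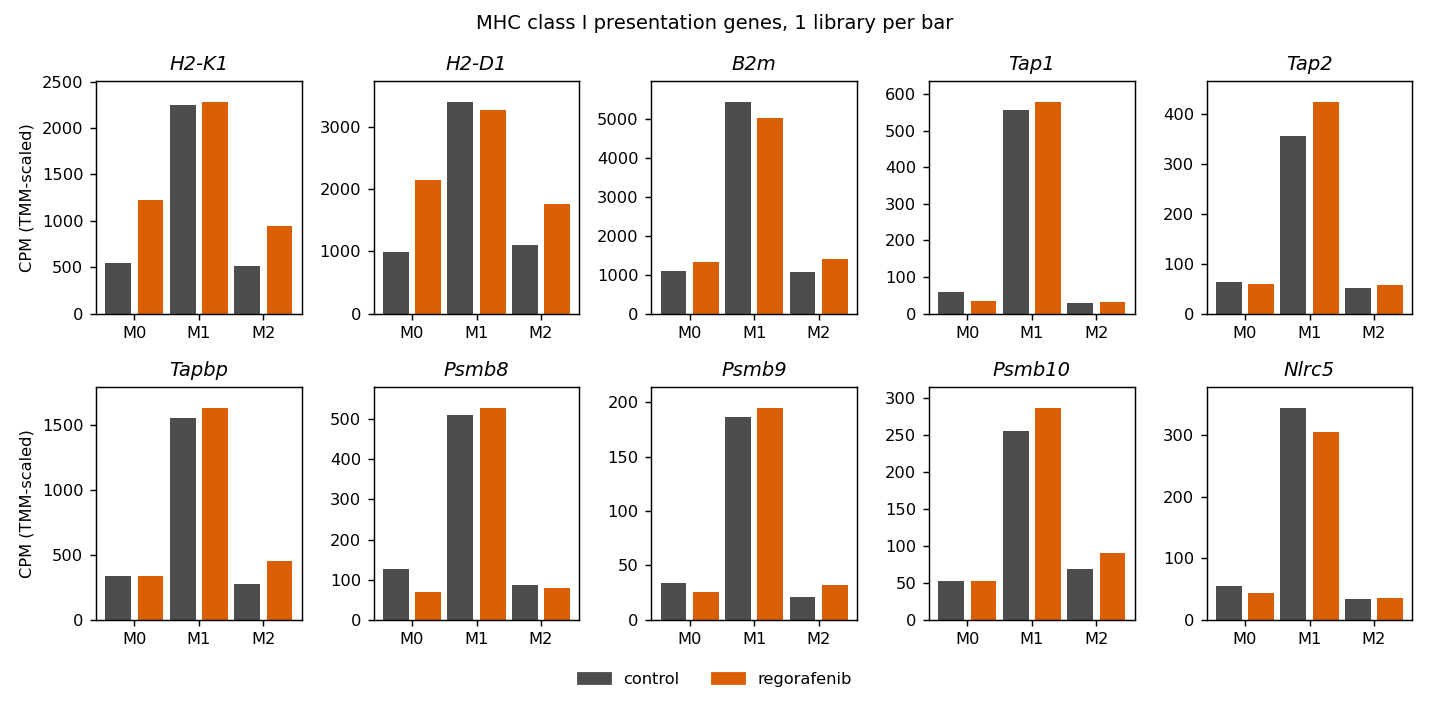
TMM-scaled CPM (vertical axes, linear and starting at 0) of the 10 members in M0, M1 and M2, 1 bar per library, grey for control and orange for regorafenib. Both M1 bars are the highest for each gene, and the orange M0 and M2 bars rise above their grey neighbours for H2-K1 and H2-D1.

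Per kilobase of exon, B2m was the most abundant member in each of the 6 libraries (1247 to 6324 CPM per kilobase), followed by H2-D1 (386.0 to 1315) and H2-K1 (174.0 to 775.2). Nlrc5 was the least abundant in each library, at 3.88 to 40.4 CPM per kilobase. Among the 6 libraries of a member, a few neighbours in the order of levels could not be separated by counting error: Tap1 and Tap2 in M0 and M2 with regorafenib, Tapbp and Psmb10 in the 2 M0 libraries, Psmb9 in M0 control and M2 with regorafenib, and Nlrc5 in the 2 M2 libraries.

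M1 polarization raised all 10 members. The test was edgeR's quasi-likelihood test with terms for state and for regorafenib over the 6 libraries, adjusted by Benjamini-Hochberg over 14110 genes. Its error is the disagreement between the drug arms and states (2 residual degrees of freedom), not the spread of replicate cultures. In M1 against M0 it called 10 of the 10 members higher, beside 18.5% of all genes called higher and 18.2% called lower. Tap1 rose the most among them, by 3.72 on the log2 scale (SE 0.30, 13.2-fold; edgeR adjusted p = 0.000893). Nlrc5 rose by 2.78 (SE 0.19, edgeR adjusted p = 0.000588) and Tap2 by 2.72 (SE 0.18, edgeR adjusted p = 0.000588).

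The 3 immunoproteasome subunits rose by similar amounts, Psmb9 by 2.73 (SE 0.28), Psmb8 by 2.52 (SE 0.27) and Psmb10 by 2.41 (SE 0.18) on the log2 scale. Tapbp rose by 2.29 (SE 0.26) and B2m by 2.18 (SE 0.25). The edgeR adjusted p of these 5 genes lay between 0.000777 and 0.00219. The heavy chains rose least, H2-K1 by 1.54 (SE 0.32, edgeR adjusted p = 0.0147) and H2-D1 by 1.26 (SE 0.32, edgeR adjusted p = 0.0296). With total counts in place of TMM factors, H2-D1 missed the threshold (log2 fold change 0.77, edgeR adjusted p = 0.0938). That scaling moved the median M1 to M0 log2 ratio of all genes by -0.44 in control and by -0.41 with regorafenib.

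The rise was not of 1 size in the control and the regorafenib arm. In control, all 10 members were at least 2-fold higher in M1 than in M0 (17.4% of the genes with at least 10 counts were 2-fold higher and 19.7% 2-fold lower), with a median log2 ratio of 2.29. With regorafenib, 8 members were at least 2-fold higher (16.3% of all genes higher, 21.6% lower), with a median of 2.64. The 2 that were not are the heavy chains. The log2 ratio of H2-K1 was 2.04 (95% counting interval 2.02 to 2.07) in control and 0.89 (0.87 to 0.91) with regorafenib. That of H2-D1 was 1.77 (1.75 to 1.79) in control and 0.61 (0.59 to 0.62) with regorafenib. B2m also had the smaller ratio with regorafenib, 1.91 against 2.31 in control.

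The other 7 members had the larger M1 to M0 ratio with regorafenib. The log2 ratio of Tap1 was 3.26 in control and 4.12 with regorafenib, and that of Psmb8 was 2.02 and 2.94. Psmb9 gave 2.46 and 2.92, Tap2 2.47 and 2.85, Nlrc5 2.63 and 2.83, Psmb10 2.27 and 2.44, and Tapbp 2.20 and 2.26. These ratios rest on the same 4 libraries as the regorafenib ratios in M0 and M1 given further on, so they are no second measurement of them, and the gap between the arms was not tested.

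**Figure D2:**
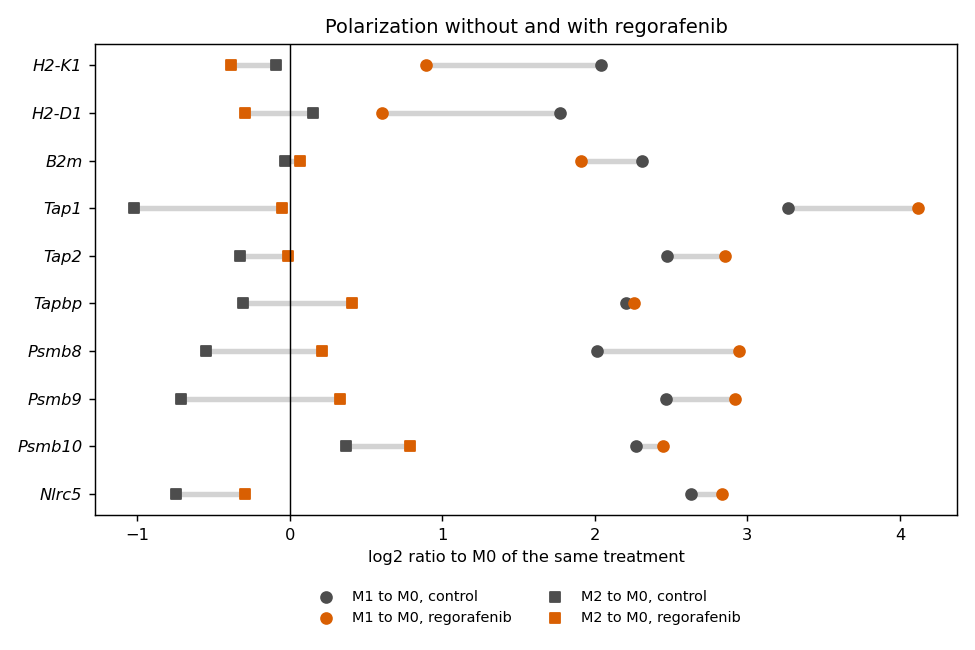
Log2 ratio to M0 of the same treatment (horizontal axis) for M1 (circles) and M2 (squares), in control (grey) and with regorafenib (orange); 1 library per side, and grey bars join the arms. For H2-K1, H2-D1 and B2m the orange circle lies left of the grey one, and for the other 7 members it lies to the right.

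No member passed the test for M2 polarization, and Tap1, Nlrc5, Psmb9 and Psmb8 had the lowest ratios to M0 in control. In M2 against M0, edgeR's quasi-likelihood test called 0 of the 10 members, beside 0.184% of all genes called higher and 0.0142% called lower. At an unadjusted p under 0.05 there were 9.28% of all genes and 2 members: Psmb10 at a log2 fold change of 0.59 (SE 0.17, edgeR adjusted p = 0.340) and Nlrc5 at -0.51 (SE 0.18, edgeR adjusted p = 0.445). DESeq2 also called 0 of the 10.

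In control alone, Tap1 was the 1 member past 2-fold in M2 against M0, at a log2 ratio of -1.02 (95% counting interval -1.13 to -0.91), where 7.61% of genes were 2-fold lower and 4.69% 2-fold higher. Nlrc5 stood at -0.75, Psmb9 at -0.72 and Psmb8 at -0.55, while Psmb10 stood at 0.37. The counting interval lay below 0 for 8 members and above 0 for 2, H2-D1 and Psmb10, beside 28.8% and 29.7% of all genes. With regorafenib, 0 members were past 2-fold (4.41% of genes higher, 5.18% lower), and the median of the members was 0.03 against -0.32 in control. Tap1 then stood at -0.05, Psmb9 at 0.33 and Psmb8 at 0.21.

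With regorafenib in M0, the heavy chains were higher while most of the processing genes were level or lower. H2-K1 had 16759 counts without and 40478 counts with the drug, a log2 ratio of 1.17 (95% counting interval 1.14 to 1.20, 2.25-fold). H2-D1 had 30577 and 70761 counts, a log2 ratio of 1.11 (1.09 to 1.13, 2.16-fold). These 2 of 10 members were past 2-fold, and 0 were 2-fold lower, beside 9.47% of the 13964 genes with at least 10 counts that were 2-fold higher and 10.9% that were 2-fold lower. Over genes of 1000 or more counts in either library, a limit chosen after the data were seen and where all members lie, the shares were 4.33% and 8.52%. B2m, the partner of both heavy chains, stood at 0.29 (0.27 to 0.31).

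The lowest members in M0 with regorafenib were Psmb8, at -0.88 (-0.96 to -0.81), and Tap1, at -0.80 (-0.91 to -0.69). Psmb9 stood at -0.39 (-0.53 to -0.26), Nlrc5 at -0.37 (-0.47 to -0.27) and Tap2 at -0.13 (-0.22 to -0.04). The intervals of Tapbp, at 0.01 (-0.03 to 0.05), and of Psmb10, at -0.01 (-0.11 to 0.09), held 0, and their signs turned with another scaling (Tapbp at -0.0075 with median-of-ratios factors, Psmb10 at 0.0024 with total counts). The 10 members thus had 3 counting intervals above 0, 5 below and 2 that held 0, beside 34.8% of all genes above and 35.9% below, and their median log2 ratio was -0.07, against 0.0050 for all genes.

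In M1, regorafenib left every member within 2-fold of control: 0 of 10 were 2-fold higher or lower, beside 1.76% and 3.46% of all genes. The log2 ratios ran from -0.17 (Nlrc5, 95% counting interval -0.22 to -0.13) to 0.25 (Tap2, 0.21 to 0.29), with a median of 0.05. The counting interval lay above 0 for 7 members and below 0 for 3, beside 17.6% and 23.5% of all genes. H2-K1 had 58045 and 54887 counts in libraries of different size, a log2 ratio of 0.02 (0.0028 to 0.037), and H2-D1 stood at -0.05 (-0.07 to -0.04). The heavy chains, which were more than 2-fold higher in M0, were thus nearly level in M1.

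In M2, 0 of 10 members were past 2-fold in either direction with regorafenib, beside 6.15% of genes that were 2-fold higher and 5.07% that were 2-fold lower, but 8 of the 10 had counting intervals above 0 and 1 below, beside 28% and 34.1% of all genes, and their median log2 ratio was 0.40, against -0.03 for all genes. H2-K1 stood at 0.88 (95% counting interval 0.85 to 0.91) and H2-D1 at 0.67 (0.65 to 0.68). Tapbp stood at 0.72 (0.68 to 0.76), the second highest member, although it was level in M0. Psmb9 stood at 0.65 (0.51 to 0.79), Psmb10 at 0.41 (0.33 to 0.49) and B2m at 0.39 (0.37 to 0.41). The exceptions were Psmb8, at -0.12 (-0.20 to -0.04), and Nlrc5, at 0.08 with an interval that held 0 (-0.04 to 0.21).

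**Figure D3:**
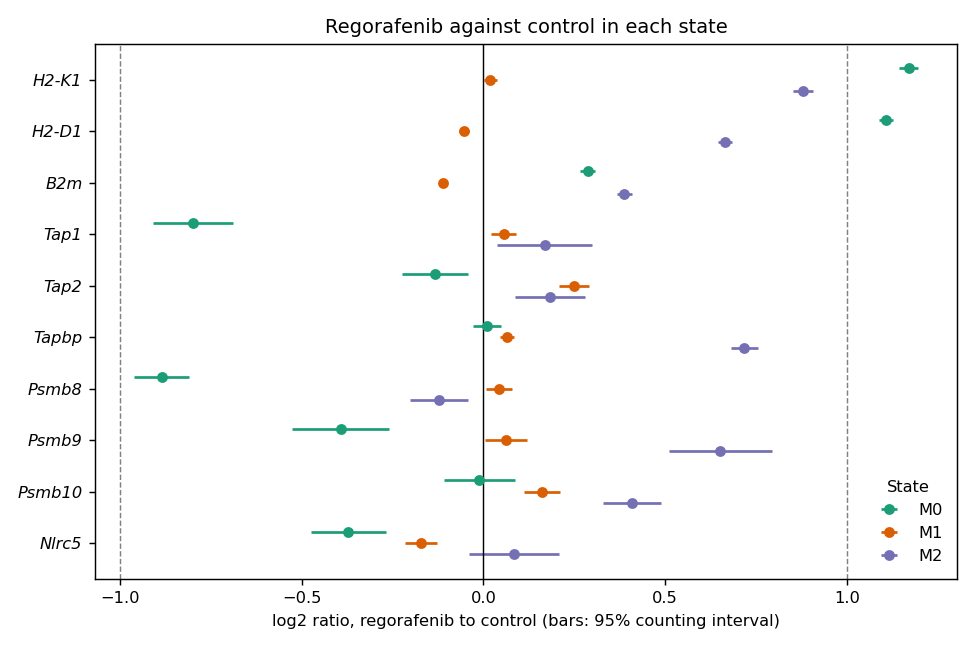
Log2 ratio of regorafenib to control (horizontal axis) for the 10 members in M0 (green), M1 (orange) and M2 (purple); each point compares 1 library with 1 library, bars are 95% counting intervals and dashed lines mark 2-fold. The M1 points lie between -0.17 and 0.25, while H2-K1 and H2-D1 lie past 2-fold in M0 and between 0.67 and 0.88 in M2.

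Across the 3 states together, edgeR's quasi-likelihood test called 0 of the 10 members for regorafenib, and 0% of all 14110 genes, of which 1637 had an unadjusted p under 0.05. DESeq2 also called 0 of the 10 members, and it called 140 genes higher and 161 lower in all. H2-K1 was the 1 member with an unadjusted p under 0.05 in edgeR (log2 fold change 0.71, SE 0.26, edgeR adjusted p = 0.417), and H2-D1 stood at 0.59 (SE 0.26, edgeR adjusted p = 0.443). Without the M1 libraries, H2-K1 passed the threshold at a log2 fold change of 1.05 (edgeR adjusted p = 0.04997), and H2-D1 stood at 0.91 (edgeR adjusted p = 0.0669). That fit called 219 of 13538 genes higher and 161 lower, and 32.6% had an unadjusted p under 0.05. Without M0, H2-K1 stood at 0.47 and H2-D1 at 0.33, and without M2 at 0.60 and 0.53. Each of these latter fits called 0 members and 0 genes in all. Whether the response differed between states could not be tested, because each state has 1 library per arm.

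Ratios between genes of 1 library need no scaling between libraries. Per kilobase, H2-K1 stood at 0.146 of B2m in M0 control and at 0.269 with regorafenib. In M2 the same ratio was 0.140 in control and 0.196 with regorafenib, and it was 0.121 and 0.132 in the M1 libraries. H2-D1 stood at 0.303 of B2m in M0 control and 0.535 with regorafenib, at 0.343 and 0.416 in M2, and at 0.208 and 0.217 in M1. The heavy chains were therefore higher relative to their partner with regorafenib in M0 and M2, and the M1 libraries had the lowest ratios. The ratio of H2-K1 to Tap1 was 17.6 in M0 control and 68.9 with regorafenib, 33.4 and 54.6 in M2, and 7.54 and 7.35 in M1.

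The balance between immunoproteasome and constitutive subunits also differed between libraries. Psmb8 to Psmb5 stood at 1.002 in M0 control and 0.878 with regorafenib, at 2.36 and 2.405 in M1, and at 0.650 and 0.912 in M2. Psmb9 to Psmb6 stood at 0.138 and 0.148 in M0, at 0.478 and 0.443 in M1, and at 0.0647 and 0.147 in M2. Psmb10 to Psmb7 stood at 0.998 and 1.74 in M0, at 3.12 and 3.31 in M1, and at 1.26 and 2.67 in M2. All 3 ratios were highest in M1. In M2 all 3 were higher with regorafenib than in control. In M0 the counting intervals of control and regorafenib overlapped for Psmb9 to Psmb6 and Psmb8 to Psmb5 but not for Psmb10 to Psmb7. Such overlap is not a test of a difference. Between the M0 libraries Psmb10 itself was level (log2 ratio -0.01) and Psmb7 was lower (-0.81).

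**Figure D4:**
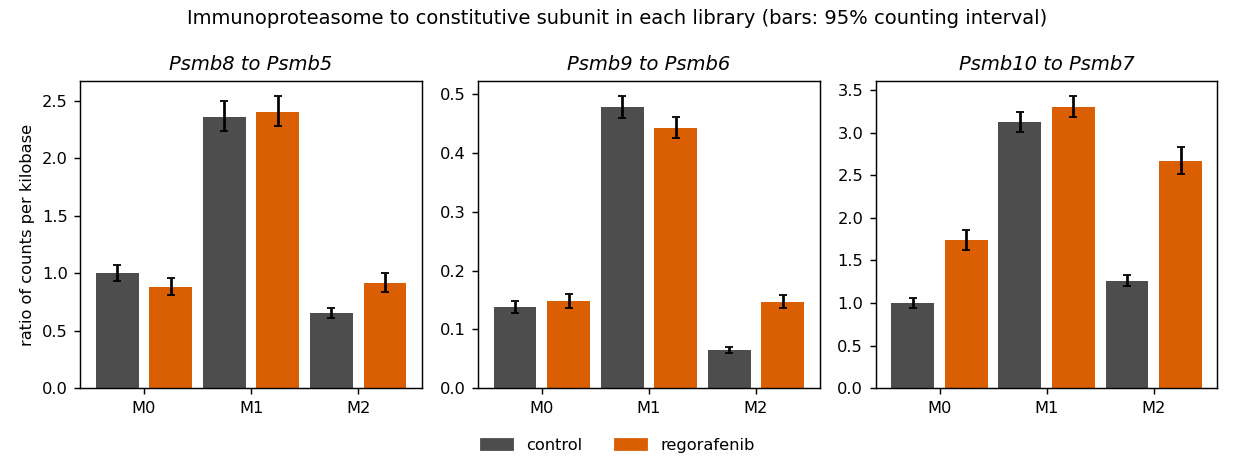
Ratio of counts per kilobase between each immunoproteasome subunit and the constitutive subunit it replaces (vertical axes, linear and starting at 0), 1 bar per library, grey for control and orange for regorafenib, with 95% counting intervals. The ratios are highest in M1, at 2.36 and 2.405 for Psmb8, 0.478 and 0.443 for Psmb9, and 3.12 and 3.31 for Psmb10.

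The constitutive subunits belong to 40 further genes of the pathway, all with at least 10 counts. In M1 against M0, edgeR's quasi-likelihood test called 30 of the 40 higher and 1 lower, beside 18.5% and 18.2% of all genes. All 5 loading chaperones rose, among them Tapbpl, a tapasin-like peptide editor, by 2.61 on the log2 scale (SE 0.22) and Calr, calreticulin, by 1.90 (SE 0.25). Of the 11 other class I heavy chains 10 rose, and Mr1, which presents vitamin metabolites to MAIT cells, fell by 1.91 (SE 0.29). Of the 7 proteasome regulators and constitutive subunits 6 rose, Psme2, a subunit of the PA28 activator, by 3.08 (SE 0.25) and Psmb5, Psmb6 and Psmb7 by 1.08 to 1.20. Of the 12 regulators 5 rose, among them Socs1, a feedback inhibitor of JAK kinases, by 7.51 (SE 0.46), Jak2 by 4.40 (SE 0.22), Irf1 by 3.78 (SE 0.47), and Ifngr2, a chain of the interferon-γ receptor, by 1.31 (SE 0.17). Of the 5 translocon and cross-presentation genes 4 rose, and Lnpep, a peptidase of endosomes, stood at 0.28 (SE 0.16) without passing. With total counts in place of TMM factors 26 of the 40 were called higher and 2 lower: Canx, Psmb6, Psmb7 and Sec22b missed the threshold (edgeR adjusted p from 0.0674 to 0.194), and Ifngr1 was called lower. The chaperones called higher were then 4 of 5, the proteasome genes 4 of 7 and the translocon and cross-presentation genes 3 of 5.

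In M2 against M0 the test called 0 of the 40 (0.184% of all genes higher and 0.0142% lower), with 3 at an unadjusted p under 0.05 beside 9.28% of all genes. DESeq2, which called 247 genes higher and 169 lower in all, called Socs1 higher, and in edgeR's fit Socs1 stood at a log2 fold change of 3.41 (SE 0.41, 10.7-fold, edgeR adjusted p = 0.0616). For regorafenib across states it called 0 of the 40 as well, with 4 at an unadjusted p under 0.05 (Rfx5, Ciita, Ifngr1 and Sec61g) beside 11.6% of all genes, and DESeq2 called Ciita higher.

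Within single states, some regulators stood far from control with regorafenib. Ciita, the transactivator of MHC class II genes and a relative of Nlrc5, had 1.53 CPM in M0 control and 20.8 with regorafenib (log2 ratio 3.77, 95% counting interval 3.34 to 4.22), 19.2 and 20.5 CPM in M1, and 4.22 and 40.9 CPM in M2 (log2 ratio 3.28, 3.03 to 3.53). Ifngr1, the ligand-binding chain of the interferon-γ receptor, stood at 1.08 in M0 and 1.03 in M2 but at -0.15 in M1. Irf1 stood at 0.78 in M0, -0.21 in M1 and 1.64 in M2. Socs1 stood at -1.69 in M0, on only 63 and 21 counts, at 0.06 in M1 and at -0.67 in M2. In M0, Socs1 and Nlrc5 were thus both lower with regorafenib while Irf1, Ifngr1 and Ciita were higher. Of the 12 regulators, 10 had counting intervals above 0 in M0 and 2 below, beside 34.8% and 35.9% of all genes.

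Among the other heavy chains, H2-T24 stood at -1.29 in M0 with regorafenib, H2-T23, the heavy chain of Qa-1, at 1.02 in M2, and H2-Q7 at -1.001 in M1, a value at the 2-fold limit that other scalings put inside it. By counts, 2 of the 40 were 2-fold higher and 3 lower in M0 with regorafenib, beside 9.47% and 10.9% of all genes. M1 had 0 higher and 1 lower (1.76% and 3.46% of all genes), and M2 had 4 higher and 0 lower (6.15% and 5.07%). For the constitutive subunits and proteasome regulators, all 7 intervals lay below 0 with regorafenib in M0 (median -0.50) and 6 of 7 in M2 (median -0.42). Of the 5 loading chaperones, 4 had intervals below 0 in M0 and 4 in M2. The share of all genes with intervals below 0 was 35.9% in M0 and 34.1% in M2. In M1, 4 of the 7 lay above and 1 below 0 (median 0.080), and 1 of the 5 chaperones above and 3 below, beside 17.6% and 23.5% of all genes. The edgeR test across the 3 states called 0 of these 12 genes, and 0 had an unadjusted p under 0.05. Fitted on M0 and M2 alone it also called 0 of the 12, with 6 of the 7 and 3 of the 5 chaperones at an unadjusted p under 0.05, beside 32.6% of 13538 genes. A list of 6 housekeeping genes moved the same way, with a median of -0.56 in M0 and -0.41 in M2 (Actb at -1.26 and Gapdh at -1.24 in M0) against -0.03 in M1; its part in the ratios between subunits was not tested.

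**Figure D5:**
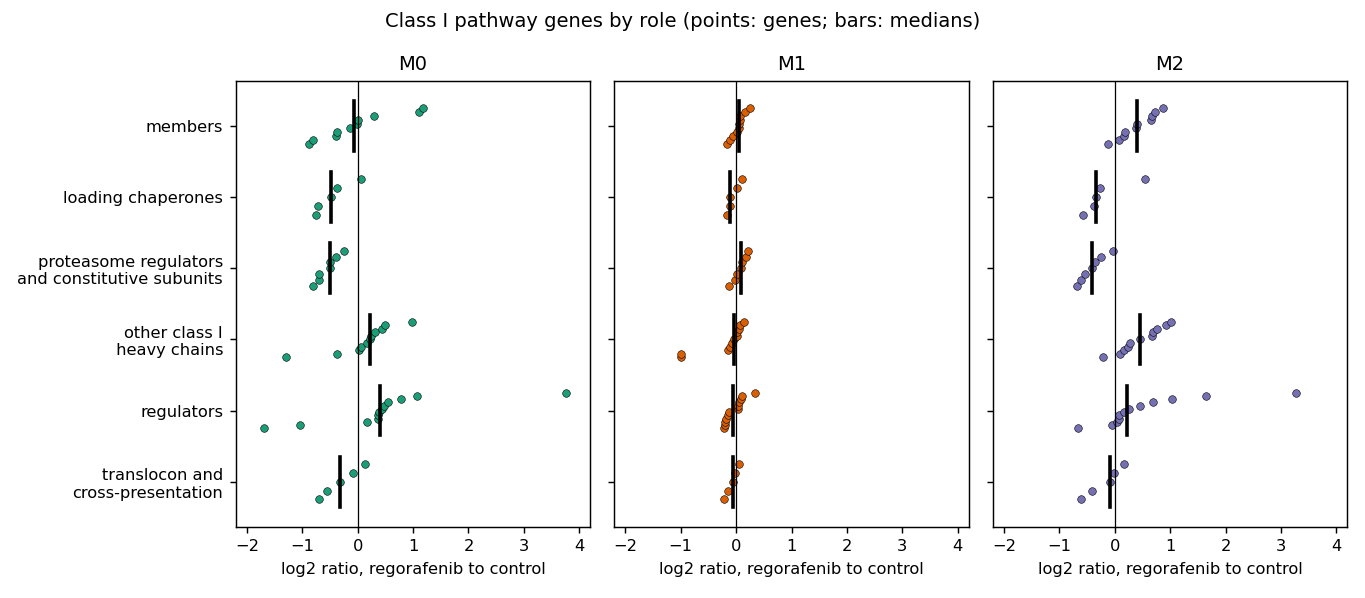
Log2 ratio of regorafenib to control (horizontal axis) for the 10 members and the 40 other pathway genes, by role, in M0, M1 and M2; each point is 1 gene, spread vertically for legibility, and black bars are medians. In M0 and M2 the chaperones and constitutive proteasome genes lie mostly left of 0, Ciita is the point at 3.77 in M0 and 3.28 in M2, and in M1 most points lie near 0.

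The members followed each other across the 6 libraries. Pearson's r of log2 CPM with the mean member profile ran from 0.887 (H2-D1) and 0.914 (H2-K1) to 0.998 (B2m), and over the 45 pairs of members it ran from 0.717 with a median of 0.955. The genes outside the list with the most similar profile, among 11313 that reached 100 counts in some library, were Src, a tyrosine kinase (r = 0.999), then Psme2b, Sema3d, AA467197, Tapbpl, Ly75, Rab11fip1, Dpf2, Egr1 and Vnn3. These values describe 6 libraries that share the same gap between M1 and the other states. Src had 177.6 and 200.6 CPM in M1 and 8.57 to 13.8 CPM elsewhere. Ly75, an endocytic receptor also known as DEC-205, had 63.0 and 65.7 CPM in M1 and 1.56 to 3.06 CPM elsewhere.

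Some members share sequence or bases with other genes. Of the 100-base words in their transcripts, 3.59% of those of H2-D1 and 0.957% of those of H2-K1 also occurred in other genes, mostly other class I genes. This share is of reference sequence only and does not bound the uncertainty for BALB/c reads. Exons of Tap1 and Psmb9 overlap on opposite strands over 3.87% and 5.79% of their exon bases. Tapbp overlaps Zbtb22 on the same strand over 4.11% of its exon bases. Other overlaps were with antisense genes of at most 45 counts, except 9330175E14Rik (92 to 449 counts), which covers 0.918% of the exon bases of Nlrc5.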

How the data were processed

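RNA-seq libraries of BMDMs were made with the TruSeq Stranded mRNA kit and sequenced as paired reads of 100 bases. The authors trimmed reads with cutadapt 2.4, mapped them to GRCm38 with STAR 2.7.2a and deposited whole-number counts per gene from STAR on Gencode M19, with no normalization. Which strand column was taken is not given in the sources used here. A wrong or unstranded column would add antisense reads to a gene, and stringent mapping to C57BL/6J sequence could lose reads of BALB/c class I alleles or assign them to another class I gene. Gene IDs were named through Gencode M21 and its gene name table: 53229 of 54446 matched with their version, 1180 without it, and 37 remained unnamed.

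Counts were scaled with TMM factors over the 6 libraries (0.820 to 1.12, edgeR 4.0.16 in R 4.3.3), and computations used Python 3.11.15 with numpy 2.4.6, scipy 1.17.1 and pandas 2.3.3. Within a pair of libraries the log2 ratio was given with its conditional exact binomial 95% interval, which covers counting error only, since the reads carry no molecular identifiers. A ratio past 2-fold was counted. The share of all genes past 2-fold was taken over genes of 10 or more counts in either library. Terms for state and regorafenib were tested with edgeR's quasi-likelihood test over 14110 genes kept by filterByExpr (Benjamini-Hochberg adjusted p under 0.05). Alternatives were DESeq2 1.42.0, other scalings, other minimum counts, a 1.5-fold limit and fits with fewer libraries. The simulated replicates of the NOISeq tool were not used.

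The members and gene lists were chosen with earlier results of these data known. Genes named in the text are the 10 members, the 40 listed pathway genes, the 10 other genes with the highest Pearson r to the mean member profile, and the marker and housekeeping genes. Levels per kilobase used the merged exon length. The values of 1 pathway gene are not reported here, although it is counted in the lists.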

Additional observations from a re-analysis of the deposited data

Results flagged for a closer look

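For the 5 genes given here, the regorafenib ratio had opposite signs in a pair of states and was past 2-fold in 1 of them. With 1 library per arm and state, none of these differences was tested. H2-D1 had a log2 ratio of 1.11 in M0 and -0.05 in M1. Among the regulators, Socs1 stood at -1.69 in M0 and 0.06 in M1. Ifngr1 stood at 1.08 in M0, -0.15 in M1 and 1.03 in M2, so that M1 differed in sign from both other states. Irf1 stood at -0.21 in M1 and 1.64 in M2. H2-T23 stood at -0.076 in M1 and 1.02 in M2. In each of the 5 genes the ratio in M1 was the one close to 0. The 5 genes were picked by these same ratios. Of all genes, 5.22% were past 2-fold in either direction in M1, against 20.4% in M0 and 11.2% in M2.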

How the results depend on the processing

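The libraries have 1 sample per condition, so no replicate could be left out, and the labels give no replicate numbers to pair libraries by; the edgeR fit has state as a term, which sets regorafenib against control within each state. Reads assigned to H2-K1 and H2-D1 depend on how BALB/c alleles map to the reference. For summaries of members, pathway genes and all genes, 205 of 256 values under an alternative kept their call or stayed within the margin. The signs of 2 pathway medians near 0 turned with another scaling (M2 against M0 control, and M1 with regorafenib). The cause of the other 51 was not tested except where fewer libraries or a lower limit sets it. A limit of 1.5-fold gave 2 members lower in M0 with regorafenib, 4 higher in M2, 3 lower in M2 against M0 control and 1 higher in M2 against M0 with regorafenib, beside 20.2%, 12.7%, 14.5% and 9.49% of all genes. For pathway genes it gave 4 higher (19% of all genes) and 9 lower in M0, 2 lower in M1 (8.41%), 9 higher and 4 lower (12.6%) in M2 with regorafenib, and 9 lower in M2 against M0 control and 4 higher with regorafenib. With total counts, member medians were 0.0911 in M1 and 0.475 in M2 with regorafenib, 1.85 and 2.23 in M1 against M0 (control and regorafenib) and -0.41 in M2 against M0 control, and pathway medians were 0.158 in M2 with regorafenib and 0.869 and 1.17 in M1 against M0. Pathway genes past 2-fold and lower were then 0 in M1 with regorafenib, 2 in M1 against M0 control and 2 in M2 against M0 control. The test of M1 against M0 with total counts called 2 pathway genes lower and, over all genes, 1629 higher and 5113 lower, against 2609 and 2565 with TMM, and B2m in M2 against M0 turned to -0.035. Median-of-ratios factors gave pathway medians of 1.36 and 1.65 in M1 against M0 and, like TMM over the pair alone, 0 pathway genes 2-fold lower in M1 with regorafenib. For regorafenib across states, DESeq2 called 140 genes higher and 161 lower (1 pathway gene higher), edgeR with no filter called 155 and 178 (1 pathway gene) and edgeR without M1 called 219 and 161 (1 member, H2-K1, and 2 pathway genes, Ciita and Ifngr1), against 0 in the filtered fit over 3 states. Tap1 turned to 0.13 without M0 and Psmb9 to -0.16 without M2, and neither passed the test. For M2 against M0, DESeq2 called 247 and 169, edgeR with no filter 243 and 165, and edgeR on 4 libraries 77 and 23, each with 1 pathway gene higher, against 26 and 2. In M1 against M0 these 3 fits each called 2 pathway genes lower.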

Other observations

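The members together held 0.375% of all counts in M0 control and 0.599% with regorafenib, 1.22% and 1.23% in M1, and 0.340% and 0.537% in M2. Within the transporter, Tap1 stood at 0.622 of Tap2 per kilobase in M0 control and at 0.392 in M0 with regorafenib, at 1.08 and 0.942 in M1, and at 0.385 and 0.381 in M2. H2-K1 stood at 0.481 and 0.502 of H2-D1 in M0, at 0.582 and 0.612 in M1, and at 0.407 and 0.471 in M2. Of the PA28 activator and its nuclear relative, Psme1 stood at 1.06 of Psme3 in M0 control and 1.27 with regorafenib, at 4.07 and 3.22 in M1, and at 1.07 and 1.34 in M2.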
